A study of Mus musculus with 45 samples.

Results

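A set of 9 genes of the transforming growth factor beta (TGF-beta) pathway were followed while mouse embryonic fibroblasts (MEFs) were turned into muscle cells or into muscle progenitors. They were the ligand genes Tgfb1, Tgfb2 and Tgfb3, the receptor genes Tgfbr1 and Tgfbr2, the feedback genes Smad7 and Skil, and the target genes Tgfbi and Pmepa1. They are 9 of the 35675 genes in the data and were chosen by name, with earlier results of these data known. Shares over all genes are therefore given beside their counts as description only. Each gene was measured by summing the estimated reads of all its transcripts. All 9 passed the filter on low counts and are among the 17325 genes tested.

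The cells were transgenic MEFs with a doxycycline-inducible MyoD, a transcription factor that directs fibroblasts to the muscle fate, and with green fluorescent nuclei where Pax7, the transcription factor that marks muscle stem cells, is active. All 45 bulk RNA-seq libraries have the genotype label Tg:Pax7-nGFP/C57BL6;DBA2, and they form 15 groups of 3. The first group was untreated MEFs. On the MyoD route the cells received doxycycline alone and were sampled after 2, 4, 6, 8 or 10 days (labelled as myotubes). On the F/R/C route they received doxycycline with the small molecules abbreviated F/R/C and were sampled on the same days (labelled as muscle fibers with progenitor cells). The bulk induced myogenic progenitor cells (iMPCs) were established clones that no longer depended on doxycycline, kept in medium with F/R/C after 13 days of doxycycline and F/R/C. Pax7-positive iMPCs were purified by sorting for the reporter. Bulk primary myoblasts from skeletal muscle and sorted Pax7-positive myoblasts were the muscle-derived references. The labels do not say whether the 3 libraries of a group came from separate cultures, so the p-values measure the spread between these libraries, which may be technical in part. The animals' ages and the spelling-out of F/R/C are not given in the sources used here.

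As background, TGF-beta ligands are secreted in a latent form, are released at the cell surface or in the matrix, and bind the type II receptor (Tgfbr2), which activates the type I receptor kinase (Tgfbr1). The kinase phosphorylates Smad2 and Smad3, which join Smad4 and enter the nucleus. TGF-beta signalling induces matrix and cytoskeletal genes in fibroblasts and is known to inhibit myogenic differentiation. In the published iMPC protocol F/R/C stands for forskolin, which raises cyclic AMP, RepSox, an inhibitor of the type I TGF-beta receptor, and CHIR99021, an inhibitor of GSK3. Since the 3 molecules were given together, their effects cannot be told apart.

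Total estimated reads ran from 15.6 to 36.3 M per library (median 22.1 M). Myod1 itself was at 0.761 to 8.83 CPM (counts per 1 M reads) in MEFs, at 622 to 5182 CPM on the MyoD route and at 543 to 1359.6 CPM on the F/R/C route. Pax7 was at 263 to 351 CPM in sorted iMPCs and 349 to 813 CPM in sorted myoblasts. The summed level of 8 markers of differentiated muscle was 51.5 to 143 CPM in MEFs. Markers of macrophages summed to at most 11.2 CPM (6 genes; C1qa had no read outside the MEFs), those of endothelial cells to at most 9.21 CPM (5 genes) and those of epithelial cells to at most 39.5 CPM (4 genes). Some libraries stood apart. MEF replicate 1 had 5947 CPM of 8 fibroblast markers against 3362 and 3599 CPM in the other MEFs, and bulk myoblast replicate 3 had 1008 CPM of differentiated muscle markers against 28653 and 14769 CPM. All 11 libraries numbered 3 among the 33 of the MEFs and both routes had more Y-linked than Xist reads, and none of the other 22 did, so in these groups number 3 differed from the others by more than a technical repeat. The 6 sorted libraries were quantified with another fragment length than the rest (180.03 against 152.81 bases), a difference that cannot be told apart from the sorting.

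Comparing the F/R/C route with the MyoD route at the same day asks which of these genes differed when the small molecules were added. A gene is called here when edgeR's quasi-likelihood test, adjusted over all genes tested, gave p under 0.05 and the difference was at least 2-fold. On day 2, 4 of the 9 genes were called, against 4.93% of all genes. Tgfbr1 was the 1 higher with F/R/C (2.13% of all genes), and Smad7, Skil and Pmepa1 were the 3 lower ones (2.80%). Tgfb1 joined the lower genes from day 4. On that day 5 members were called (13.2% of all genes), 1 higher (6.58%) and 4 lower (6.66%). The counts were the same on day 6 (15.4% called, 8.23% higher and 7.14% lower among all genes) and on day 8 (18.7%, 9.20% and 9.46%). By day 10, 0 members were called higher (9.91% of all genes) and 4 lower (13.4%), when 23.3% of all genes were called. In the average over the 5 days, Tgfbr1 was higher (11.6% of all genes) and Tgfb1, Smad7, Skil and Pmepa1 were lower (10.5%), 5 of 9 against 22.1% of all genes. The median log2 difference over the 9 genes was -0.08 in this average, against -0.03 over all genes tested, and the called members lay on both sides of 0. For the change of the difference from day 2 to day 10, edgeR called 0 of the 9 (6.01% of all genes), 3 had an unadjusted p under 0.05, and DESeq2 called 1. The libraries of the routes did not overlap for 7 members on day 2 (37.8% of all genes), 6 on day 4 (46.2%), 5 on day 6 (48.8%), 6 on day 8 (46.8%) and 6 on day 10 (47.9%), so from day 4 on such a separation was common among all genes.

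The promoter sequences of Tgfb1, Tgfb2 and Tgfbr1 are shown because the estimated differences of these ligand and receptor genes between the routes ran in unlike directions. Those of Tgfb3 also changed sign between days, but no window was available for it. Each run is the 250 bases before the RefSeq transcript start (GRCm38.p6), 5′ to 3′ on the gene's strand. The windows are chr7:25686752-25687001 on the plus strand for Tgfb1, chr1:186705990-186706239 on the minus strand for Tgfb2 and chr4:47352972-47353221 on the plus strand for Tgfbr1. Capitals mark CAGAC (the Smad-binding box), TGACG (part of the cyclic AMP response element) and CANNTG (the E-box, bound by MyoD and related factors) on either strand.
Tgfb1: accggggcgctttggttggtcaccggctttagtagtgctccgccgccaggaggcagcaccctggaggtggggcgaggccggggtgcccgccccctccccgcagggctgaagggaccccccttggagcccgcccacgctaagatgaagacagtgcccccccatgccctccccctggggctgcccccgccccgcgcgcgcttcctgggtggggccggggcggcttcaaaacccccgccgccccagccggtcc
Tgfb2: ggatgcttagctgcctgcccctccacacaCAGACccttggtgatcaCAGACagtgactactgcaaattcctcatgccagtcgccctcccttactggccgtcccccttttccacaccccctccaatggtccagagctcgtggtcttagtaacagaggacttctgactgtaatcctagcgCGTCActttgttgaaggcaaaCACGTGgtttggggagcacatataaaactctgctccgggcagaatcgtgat
Tgfbr1: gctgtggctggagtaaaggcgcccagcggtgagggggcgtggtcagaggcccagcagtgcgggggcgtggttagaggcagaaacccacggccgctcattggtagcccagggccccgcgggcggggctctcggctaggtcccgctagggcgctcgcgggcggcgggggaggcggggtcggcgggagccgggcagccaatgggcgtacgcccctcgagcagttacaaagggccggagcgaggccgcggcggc

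The window of Tgfb2 held CAGAC 2 times, with first bases at -221 and -204 from the start. It held TGACG on the other strand (read as CGTCA) at -72, and CACGTG, an E-box, at -51. TATAAA, the TATA box, which is left in lower case, stood at -31. The windows of Tgfb1 and Tgfbr1 held none of these letters, and they were also richer in G and C: 75.2% and 74.8%, against 53.6% for Tgfb2 and a median of 52.4% over all 32851 windows. Among all windows, 42.2% held CAGAC, 17.8% TGACG, 66.2% CANNTG, 6.0% CACGTG and 12.4% TATAAA. For the 9 genes, windows on chromosome 18, which holds Smad7, were left out, and the windows read belonged to 5 genes. Those of Tgfbr2 and Tgfbi held CAGAC 1 and 2 times, and a further window of Tgfbr1 held CAGAC and an E-box. None of the windows read for these genes held CAGCTG, the E-box form preferred by MyoD, or CTTTGAT, a TCF site, which 13.0% and 3.2% of all windows hold. A match of letters is not a measured binding site.

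Tgfb1 (chromosome 7: 25687002-25705077, GRCm38), the best-studied ligand gene, was lower on the F/R/C route from day 4 onward. On day 2 the MyoD libraries, in the order of replicates 1, 2 and 3 used throughout, held 44.7, 34.3 and 44.7 CPM and the F/R/C libraries 21.8, 13.5 and 23.6 CPM. By day 6 the MyoD libraries were at 74.3, 56.6 and 63.3 CPM and the F/R/C libraries at 17.7, 14.2 and 14.7 CPM. On day 10 they were at 85.9, 53.0 and 64.7 CPM against 10.1, 6.28 and 18.6 CPM. Every F/R/C library lay below every MyoD library of its day on all 5 days, and the MyoD libraries of days 6 to 10 lay within or above the MEF range of 51.2, 67.1 and 49.7 CPM. The log2 difference was -1.07 ± 0.46 (SE) on day 2, which missed the threshold (adjusted p = 0.15). It was -1.64 ± 0.46 on day 4 (adjusted p = 0.0093) and -2.54 ± 0.48 on day 10 (adjusted p = 1.1e-04), when Tgfb1 was 5.80-fold lower. The change of this difference from day 2 to day 10 was -1.47 ± 0.64 and was not called (adjusted p = 0.14). The day 4 call was lost without F/R/C day 4 replicate 2 (-1.44, adjusted p = 0.062). With only the day 2 groups in the fit, day 2 was called as well (-1.05, adjusted p = 0.021). Over the 15 groups the MyoD route and MEFs had the highest levels and sorted Pax7-positive iMPCs the lowest (7.93, 3.96 and 0.568 CPM). In the order of group means, neighbours overlapped in 12 of 14 cases, the gaps lying on either side of the MyoD day 2 group.

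**Figure D1:**
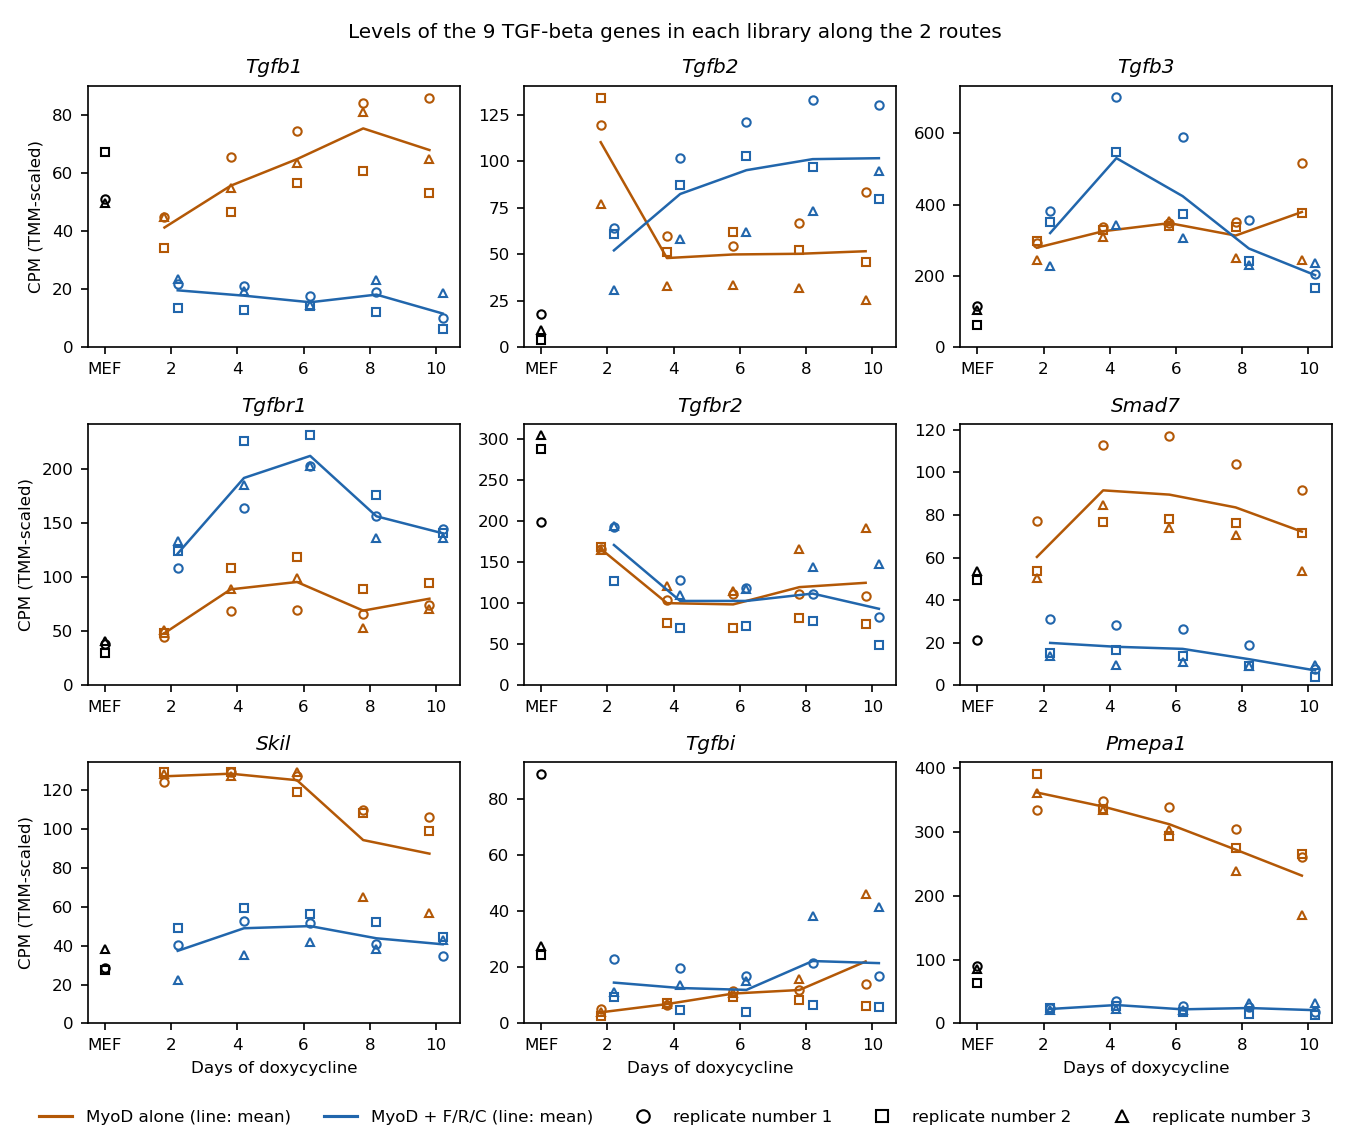
CPM of each of the 9 genes (1 panel per gene, linear axis from 0) by day, with every library as a symbol for its replicate number and lines through the group means; MEFs are black, the MyoD route orange and the F/R/C route blue. Tgfb1, Smad7, Skil and Pmepa1 run lower and Tgfbr1 runs higher on the F/R/C route, and the mean of Tgfb2 is lower on day 2 only.

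Tgfb2 (chromosome 1: 186622792-186705989), the gene for the second ligand, had the opposite order on day 2 and on later days, and was not called on any day in the fit without a replicate block. MEFs had 17.8, 3.95 and 9.57 CPM. By day 2 the MyoD libraries had reached 119.7, 134 and 77.2 CPM and the F/R/C libraries 64.2, 61.2 and 31.1 CPM. On day 4 the order was reversed, with 60.1, 51.1 and 32.9 CPM on the MyoD route against 102, 87.2 and 58.2 CPM with F/R/C. In words, the MyoD libraries were high early and lower afterwards, and the F/R/C libraries were lower early and higher afterwards. On day 8 the MyoD libraries held 66.8, 52.5 and 31.7 CPM and the F/R/C libraries 133, 97.1 and 73.5 CPM. On day 10 these were 83.7, 46.1 and 25.3 CPM against 130.4, 80.0 and 94.7 CPM. The groups did not overlap on days 2 and 8 and overlapped on days 4, 6 and 10, although each F/R/C library exceeded the MyoD library of its own number on days 4 to 10. The log2 difference was -1.08 ± 0.56 on day 2 (adjusted p = 0.26), 0.78 ± 0.56 on day 4 (adjusted p = 0.33) and 0.98 ± 0.56 on day 10 (adjusted p = 0.17). Its change from day 2 to day 10 was 2.06 ± 0.79 and was not called (adjusted p = 0.094). The replicate block called this change (2.23 ± 0.65, adjusted p = 0.023) and the day 10 difference (1.11 ± 0.46, adjusted p = 0.048). The change was called, too, in a fit of the 4 groups alone (2.12, adjusted p = 0.04), and by DESeq2 (2.12, adjusted p = 0.05, just under the threshold). The day 8 difference was called with only the groups compared (1.06, adjusted p = 0.048), and that of day 10 without MyoD day 10 replicate 1 (1.64, adjusted p = 0.048). The highest group mean was that of Pax7-positive iMPCs (247, 205 and 77.3 CPM) and the lowest that of MEFs. All other neighbours in the order overlapped (13 of 14).

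Tgfb3 (chromosome 12: 86056745-86079041), which encodes the third ligand, had the highest level per length of the ligand genes in 13 of the 15 groups. Per length, in mean TPM (transcripts per 1 M transcripts), Tgfb3 was at 128 and 155 TPM on day 2 with MyoD alone and with F/R/C, where Tgfb2 was at 41.6 and 22.0 TPM and Tgfb1 at 36.8 and 18.1 TPM. In MEFs Tgfb1 (57.5 ± 6.16 TPM, SD, n = 3) and Tgfb3 (50.1 ± 16.3 TPM, SD, n = 3) were close to each other. Sorted Pax7-positive iMPCs had the order Tgfb2 (72.0 TPM), Tgfb3 (21.3 TPM) and Tgfb1 (3.49 TPM). On day 4, Tgfb3 was at 338, 330.3 and 309 CPM on the MyoD route and at 701, 548 and 343 CPM with F/R/C. On day 10 it was at 518, 377 and 244 CPM against 205, 167 and 236 CPM. So every F/R/C library was above the MyoD libraries on day 4 and below them on day 10. For F/R/C minus MyoD the log2 difference was 0.70 ± 0.45 on day 4 (adjusted p = 0.27) and -0.90 ± 0.45 on day 10 (adjusted p = 0.11), and neither passed the test. The average over days was 0.02 ± 0.20 (adjusted p = 0.95). Group means were highest on F/R/C days 4 and 6 and lowest in MEFs and Pax7-positive iMPCs, and 13 of 14 neighbours in this order overlapped.

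Tgfbr1 (chromosome 4: 47353222-47414931), the gene for the type I receptor kinase, was higher with F/R/C on each day, and was called on days 2, 4, 6 and 8. The MyoD libraries of day 2 held 45, 48.2 and 51.6 CPM and the F/R/C libraries 108, 124 and 133 CPM. On day 6 the values were 69.3, 118 and 98.9 CPM against 202, 231 and 202 CPM. On day 10 they were 74.6, 94.9 and 70.5 CPM against 144, 141 and 136 CPM. No F/R/C library fell into the MyoD range of its day, and all of both routes lay above the MEF values of 38.3, 29.6 and 41.4 CPM. In log2 units the difference was 1.33 ± 0.24 on day 2 (adjusted p = 5.3e-04), 1.11 ± 0.24 on day 4 (adjusted p = 9.0e-04) and 1.18 ± 0.24 on day 8 (adjusted p = 4.0e-04). On day 10 it was 0.81 ± 0.24 (adjusted p = 0.0068), which is less than 2-fold and so was not called. The average over days was a 2.17-fold higher level (1.12 ± 0.11, adjusted p = 1.6e-10). Without MyoD day 4 replicate 1 the day 4 difference came just below 2-fold (1.00), and without MyoD day 10 replicate 2 day 10 was called (1.06, adjusted p = 0.0033). Over the 15 groups, the 5 F/R/C groups had the highest means, followed by both kinds of iMPC, the 5 MyoD groups, bulk myoblasts, MEFs and sorted myoblasts. Neighbours overlapped in 12 of 14 cases.

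Tgfbr2 (chromosome 9: 116084293-116175360), the gene for the ligand-binding type II receptor, showed no called difference between the routes on any day. On day 2 the MyoD libraries held 166, 169 and 165 CPM and the F/R/C libraries 193, 127 and 194 CPM. On day 10 they held 109, 74.6 and 192 CPM against 83.7, 48.9 and 148 CPM. The routes overlapped on all 5 days, and replicate 2 was the lowest library of both routes on days 4 to 10. The average log2 difference was -0.08 ± 0.21 (adjusted p = 0.79), and the days ran from -0.42 on day 10 to 0.07 on day 6, each with an SE of 0.48. This error is large beside the differences. The level was highest in MEFs (199, 289 and 306 CPM), above every library of both routes, and 13 of 14 neighbours in the order of means overlapped. In Pax7-positive iMPCs the libraries spread from 29.8 to 337 CPM.

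Smad7 (chromosome 18: 75367529-75395935), the gene for an inhibitory Smad that TGF-beta induces and that blocks the type I receptor, was lower with F/R/C on every day. On day 2 the MyoD libraries held 77.0, 53.7 and 50.2 CPM and the F/R/C libraries 31.2, 15.1 and 13.6 CPM. On day 6 the MyoD libraries held 117, 77.9 and 73.7 CPM and the F/R/C libraries 26.5, 14.0 and 11 CPM. On day 10 the values were 91.5, 71.5 and 53.5 CPM against 7.75, 3.94 and 9.53 CPM. The routes did not overlap on any day. The log2 difference was -1.59 ± 0.49 on day 2 (adjusted p = 0.038), -2.38 ± 0.50 on day 6 (adjusted p = 7.9e-04) and -3.34 ± 0.53 on day 10 (adjusted p = 1.3e-05), when Smad7 was 10.2-fold lower. The change from day 2 to day 10, -1.75 ± 0.68, was not called (adjusted p = 0.099). The day 2 call is close to the threshold. It was lost without MyoD day 2 replicate 1 (-1.35, adjusted p = 0.14), 2 (-1.67, adjusted p = 0.075) or 3 (-1.70, adjusted p = 0.057), and without F/R/C day 2 replicate 2 (-1.41, adjusted p = 0.14) or 3 (-1.38, adjusted p = 0.2). It was also lost with no filter on low counts (-1.58, adjusted p = 0.051). With length-scaled TPM counts it was -1.48 and just above the threshold (adjusted p = 0.05). The calls of days 4 to 10 held in all alternatives tried and without any single library. MEFs held 21.3, 49.6 and 53.7 CPM and overlapped libraries of both routes. All 14 neighbours in the order of group means overlapped, from MyoD day 4 at the top to Pax7-positive iMPCs at the bottom.

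Skil (chromosome 3: 31095058-31122577) encodes SnoN, a nuclear co-repressor that binds Smads and is also induced by TGF-beta. Its MyoD libraries of day 2 held 124, 129 and 128 CPM and the F/R/C libraries 40.4, 49.1 and 22.5 CPM. On day 6 they held 127, 119 and 129 CPM against 51.7, 56.4 and 42.0 CPM, and on day 10 106, 98.8 and 57.0 CPM against 34.8, 44.5 and 42.8 CPM. The routes did not overlap on any day, and on days 2 to 6 all MyoD libraries lay between 119 and 129 CPM. The log2 difference was -1.77 ± 0.25 on day 2 (adjusted p = 3.2e-05), -1.32 ± 0.25 on day 6 (adjusted p = 2.6e-04) and -1.10 ± 0.25 on day 10 (adjusted p = 8.1e-04). Days 8 and 10 are near the 2-fold limit. Day 8 fell below it without MyoD day 8 replicate 1 (-0.89) or 2 (-0.96) and without F/R/C day 8 replicate 3 (-0.91). Day 10 fell below it without MyoD day 10 replicate 1 (-0.81) or 2 (-0.90), without F/R/C day 10 replicate 1 (just under 2-fold) or 3 (-0.99), and with no filter on low counts (-0.98). MEFs, at 28.4, 27.6 and 38.3 CPM, were near the F/R/C libraries rather than the MyoD libraries. Bulk myoblasts, at 117, 133 and 131 CPM, lay just below and just above this range of MyoD days 2 to 6. Neighbours overlapped in 11 of 14 cases.

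**Figure D2:**
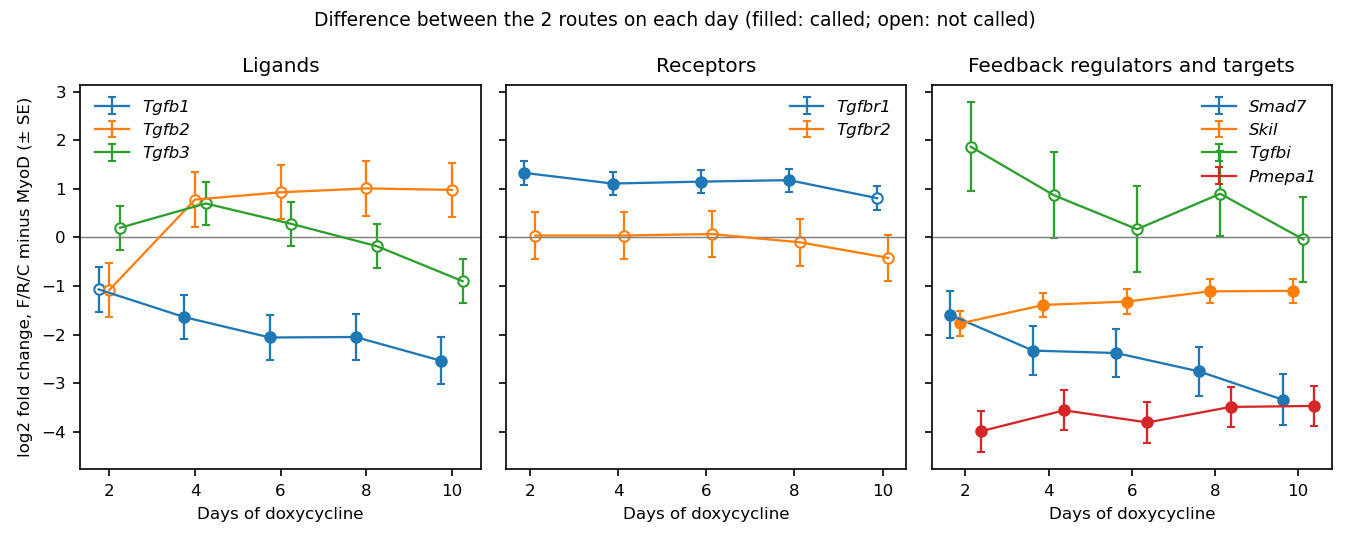
Log2 difference of F/R/C minus MyoD (vertical axis, error bars ± 1 SE from edgeR) by day for the ligand genes, the receptor genes, and the feedback and target genes; filled symbols were called, open symbols were not. Pmepa1 stays between -3.99 and -3.47, Smad7 goes from -1.59 to -3.34, and Tgfb2 crosses 0 between days 2 and 4.

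Pmepa1 (chromosome 2: 173224458-173276533), a target gene whose membrane protein binds Smad2 and Smad3 and limits the signal, had the largest difference between the routes of the 9 genes. The MyoD libraries of day 2 held 334, 390.1 and 359.8 CPM and the F/R/C libraries 23.5, 24.1 and 20.5 CPM. On day 6 they held 339, 293 and 303 CPM against 27.6, 18.1 and 20.7 CPM. On day 10 they held 259.9, 265 and 169 CPM against 17.2, 12.7 and 32.5 CPM. The MEF values, 89.7, 63.3 and 85.1 CPM, lay between the routes, so that every MyoD library was above and every F/R/C library below every MEF library. Pmepa1 was 15.9-fold lower with F/R/C on day 2 (-3.99 ± 0.42, adjusted p = 2.3e-07) and 11.1-fold lower on day 10 (-3.47 ± 0.41, adjusted p = 4.0e-07). The average over days was 12.7-fold lower (-3.66 ± 0.19, adjusted p = 1.8e-16). The change from day 2 to day 10 was 0.52 ± 0.53 (adjusted p = 0.57). By size, it was number 67 of the 485 genes called lower on day 2 and number 96 of the 1811 called lower in the average. In the order of group means, 11 of 14 neighbours overlapped, and the gaps set the MyoD groups apart from myoblasts, MEFs from the F/R/C groups, and bulk from sorted iMPCs.

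Tgfbi (chromosome 13: 56609523-56639562) encodes a secreted matrix protein named for its induction by TGF-beta, and it did not share the pattern of Pmepa1. Its MyoD libraries of day 2 held 5.01, 2.75 and 4.13 CPM and the F/R/C libraries 23.0, 9.47 and 11.2 CPM. On day 10 they held 14.0, 6.14 and 46.1 CPM against 17.0, 5.89 and 41.6 CPM. The routes did not overlap on day 2 and overlapped on the later days. On day 10 the libraries with the same number were close to each other, while numbers 1, 2 and 3 lay far apart on both routes. Its log2 difference was 1.87 ± 0.92 on day 2 (adjusted p = 0.23), -0.04 ± 0.87 on day 10 (adjusted p = 0.98) and 0.75 ± 0.40 in the average (adjusted p = 0.097). Day 2 was called with only its 2 groups in the fit (1.89, adjusted p = 0.019), and the average without MyoD day 10 replicate 3 (1.03, adjusted p = 0.025). The highest levels were in bulk iMPCs (154, 188 and 22.2 CPM) and MEFs (88.8, 24.3 and 27.7 CPM), and the lowest in both kinds of myoblast, at 0.0897 to 0.776 CPM. In the order of means, 11 of 14 neighbours overlapped.

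Some markers of cell types also differed between the routes. The summed level of the 8 fibroblast markers on day 2 was 1555, 1623 and 1832 CPM on the MyoD route and 2322, 1981 and 3153 CPM with F/R/C and all 8 had reads in both groups. On day 10 it was 2318, 690.2 and 3092 CPM against 1423, 585 and 2129 CPM. Of the 8, 2 were called higher with F/R/C on day 2 (2.13% of all genes) and 6 were not called. On day 10, 1 was called higher and 1 lower, near the shares over all genes (9.91% and 13.4%). The sums did not overlap on day 2 and overlapped on day 10. The 6 proliferation markers summed to 329, 32.6 and 297 CPM on MyoD day 10 and to 858, 732 and 387 CPM on F/R/C day 10. All 6 were called higher with F/R/C on that day (9.91% of all genes). Of 8 muscle progenitor markers, 4 were called higher and 4 were not called on day 10. Differentiated muscle markers summed to 12943, 28145 and 7818 CPM against 10588, 14307 and 17248 CPM on that day. These sums overlapped, and 0 of the 8 differentiated muscle markers were called higher and 0 lower. The part of these markers in the differences between the routes was not tested. In bulk samples, fewer cells of a type and less RNA per cell cannot be told apart.

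Other genes of the pathway were read from a list of 42 genes in 5 roles. In the average over days 2 higher and 18 lower genes were called with F/R/C, and 22 were not called, when 11.6% of all genes were called higher and 10.5% lower. The median log2 difference was -0.89, against -0.03 for all genes tested. On day 2, 1 gene was higher and 4 were lower (median -0.75), against 2.13% and 2.80% of all genes. On day 10, 1 was higher and 21 were lower (median -1.19), against 9.91% and 13.4% of all genes. Both medians lay below those over all genes, which were -0.00 and -0.07.

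Among 17 genes that TGF-beta raises in fibroblasts, none was called higher and 11 were called lower in the average, where 10.5% of all genes were lower. The counts were 2 lower on day 2 (2.80% of all genes) and 12 lower on day 10 (13.4%). Fn1, the fibronectin gene, was at 10995 to 19204 CPM on MyoD day 10 and at 323 to 836 CPM on F/R/C day 10, and was 12.9-fold lower in the average (-3.69 ± 0.34, adjusted p = 7.5e-11). Lox, for the enzyme that crosslinks collagen, was 8.32-fold lower on day 2 (-3.06 ± 0.70, adjusted p = 0.0052) and 9.63-fold lower in the average (adjusted p = 2.0e-10). Ccn2, for the matricellular protein also called connective tissue growth factor, was at 535 to 1890.0 CPM on MyoD day 10 and at 28.9 to 97.0 CPM on F/R/C day 10, and was 8.91-fold lower in the average (-3.16 ± 0.41, adjusted p = 6.4e-08). Fstl3, which encodes a secreted antagonist of activin, was lower on day 2 (-1.73 ± 0.45, adjusted p = 0.013). Several of these genes are also expressed by fibroblasts in general.

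Of the 11 genes for latency and activation, 1 was called higher and 5 lower in the average, against 11.6% and 10.5% of all genes. Thbs1, for thrombospondin 1, which can activate latent TGF-beta, was at 5658 to 9779 CPM on MyoD day 2 and at 1774 to 3684 CPM with F/R/C. On day 10 its libraries held 5835 to 12024 CPM against 208 to 825 CPM. It was 7-fold lower in the average (-2.81 ± 0.35, adjusted p = 2.9e-08). Ltbp2, of the latent TGF-beta binding protein family, was 5.98-fold lower (-2.58 ± 0.40, adjusted p = 1.6e-06). Itgav, the integrin alpha v subunit that takes part in activation, was lower on day 2 (-1.33 ± 0.29, adjusted p = 0.0037) and in the average (-2.14 ± 0.13, adjusted p = 1.9e-14). Among 3 co-receptor genes, Tgfbr3, for betaglycan, which presents ligand to the receptors, was higher on day 2 (2.67 ± 0.79, adjusted p = 0.03) and in the average (1.57 ± 0.34, adjusted p = 1.7e-04). Eng, for endoglin, was lower in the average (-1.07 ± 0.41, adjusted p = 0.023).

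The genes for the signal-carrying Smads gave small differences. By edgeR, 0 of 3 were called in the average (22.1% of all genes), where all 3 had an unadjusted p under 0.05, and DESeq2 also called 0. Smad4 was at -0.28 ± 0.05 (adjusted p = 2.1e-05), Smad2 at -0.10 ± 0.05 (adjusted p = 0.074) and Smad3 at 0.22 ± 0.11 (adjusted p = 0.064). Of the 8 negative regulators, 0 were called higher and 1 lower in the average, against 11.6% and 10.5% of all genes. The count of lower genes was thus near the share over all genes. The lower gene was Tgif1, a co-repressor that binds Smad2, at -1.41 ± 0.09 (adjusted p = 5.1e-14). The gene called on day 2, when 2.80% of all genes were called lower, was Ski, which encodes a co-repressor related to Skil. Its libraries held 321 to 374 CPM on the MyoD route and 173 to 179 CPM with F/R/C (-1.01 ± 0.17, adjusted p = 1.8e-04). This difference is at the 2-fold limit, and DESeq2 called 0 of the 8 negative regulators on day 2.

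**Figure D3:**
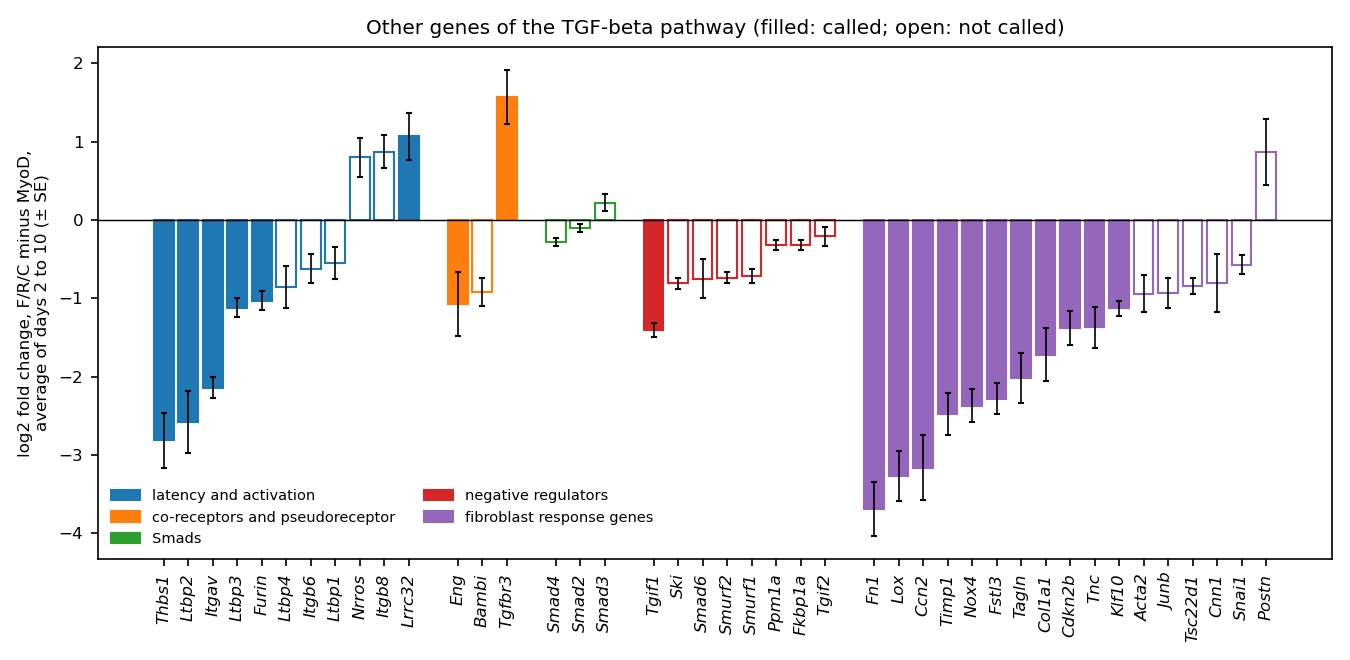
Log2 difference of F/R/C minus MyoD in the average over days 2 to 10 for 42 other pathway genes (bars from 0, error bars ± 1 SE from edgeR), ordered by role; filled bars were called. Fn1 (-3.69) and Lox (-3.27) reach furthest down, and Tgfbr3 (1.57) is among the 2 called higher.

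Contrasts with the starting MEFs show how the genes on each route differed from the untreated cells at the start. Untreated MEFs were not sampled on later days, so time in culture and treatment cannot be told apart here. These contrasts share the MEF libraries, so their values are set side by side only. With MyoD alone, 5 of the 9 genes were called on day 2, when 22.4% of all genes were (12.3% higher, 10.1% lower). Tgfb2 (3.40 ± 0.62, adjusted p = 6.3e-05), Pmepa1 (2.19 ± 0.39, adjusted p = 5.3e-05), Skil (2.01 ± 0.26, adjusted p = 2.4e-07) and Tgfb3 (1.56 ± 0.46, adjusted p = 0.008) rose, and Tgfbi fell (-3.56 ± 0.97, adjusted p = 0.0045). With F/R/C, 5 were called on day 2 (20.4% of all genes, 11.5% higher and 8.93% lower). Tgfb2 (2.32 ± 0.59, adjusted p = 0.0029), Tgfb3 (1.75 ± 0.46, adjusted p = 0.0036) and Tgfbr1 (1.74 ± 0.24, adjusted p = 1.6e-06) rose. Tgfb1 (-1.51 ± 0.46, adjusted p = 0.011) and Pmepa1 (-1.81 ± 0.39, adjusted p = 5.3e-04) fell. So Pmepa1 was above MEFs on the MyoD route and below them on the F/R/C route, and Skil, which rose with MyoD alone, was at 0.25 ± 0.25 with F/R/C (adjusted p = 0.47). Without MEF replicate 1, the log2 values of Tgfb2 went to 4.02 and 2.95, that of Tgfbi with MyoD alone went to -2.72, and Smad7 was called lower on F/R/C day 2 (-1.38, adjusted p = 0.041, against -1.06 and adjusted p = 0.09 with it). Smad7 was also called there without F/R/C day 2 replicate 1 (-1.53, adjusted p = 0.034). The fall of Tgfb1 on F/R/C day 2 was not called without F/R/C day 2 replicate 2 (-1.30, adjusted p = 0.069).

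On day 10 with MyoD alone, 5 of 9 were called against MEFs, all higher (18.9% of all genes, 14.3% higher and 4.64% lower): Tgfb2 (2.30), Tgfb3 (2.00), Pmepa1 (1.54), Skil (1.47) and Tgfbr1 (1.14). The value of Tgfbr1 came just below 2-fold without MEF replicate 2 or without MyoD day 10 replicate 2 (0.99 for each), and with length-scaled TPM counts (0.98). Tgfb2 missed the threshold with only these 2 groups in the fit (2.31, adjusted p = 0.055). On F/R/C day 10, 7 of 9 were called (34.8% of all genes, 19.0% higher and 15.8% lower). Tgfb2 (3.28), Tgfbr1 (1.95) and Tgfb3 (1.09) had risen, and Smad7 (-2.55), Tgfb1 (-2.26), Pmepa1 (-1.93) and Tgfbr2 (-1.50) had fallen. Tgfb3 was the least secure of these: its call (adjusted p = 0.041) was lost without MEF replicate 2 (adjusted p = 0.12) or 3 (adjusted p = 0.062) and without F/R/C day 10 replicate 1 (adjusted p = 0.073) or 3 (adjusted p = 0.062). The call of Tgfbr2 was lost without F/R/C day 10 replicate 2 (-1.12, adjusted p = 0.085). On MyoD day 10 Tgfbr2 was at -1.08 and not called (adjusted p = 0.089), and it was called without MyoD day 10 replicate 3 (-1.55, adjusted p = 0.029). Without MEF replicate 1, Tgfb2 was at 2.92 and 4.02 on these days.

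Established bulk iMPCs were compared with the last day of the F/R/C route, and 1 of the 9 genes was called (9.57% of all genes were, 3.33% higher and 6.24% lower). This was Tgfbi, at 2.50 ± 0.91 (adjusted p = 0.048), and the log2 differences of the others lay between -0.41 and 0.43 with SEs up to 0.55. The 3 iMPC libraries of Tgfbi spread from 22.2 to 188 CPM. Its call was lost without iMPC replicate 1 (2.30, adjusted p = 0.11) or 2 (2.02, adjusted p = 0.16), without F/R/C day 10 replicate 1 (2.35, adjusted p = 0.14) or 2 (2.06, adjusted p = 0.19), and with no filter on low counts (2.51, adjusted p = 0.064). Without F/R/C day 10 replicate 3 it was at 3.33. With length-scaled TPM counts Tgfbi was not called (2.47, adjusted p = 0.051) and Pmepa1 was called lower (-1.11, adjusted p = 0.048, against -0.04). Against MEFs, 7 of 9 genes were called in bulk iMPCs (35.5% of all genes, 19.2% higher and 16.2% lower). Tgfb2 (3.28), Tgfbr1 (1.54) and Tgfb3 (1.53) were higher, and Smad7 (-2.34), Tgfb1 (-2.20), Pmepa1 (-1.97) and Tgfbr2 (-1.29) were lower. Tgfbr2 (adjusted p = 0.024) was not called without MEF replicate 2 (-1.15, adjusted p = 0.072) or 3 (-1.18, adjusted p = 0.066), or without iMPC replicate 2 (-1.29, adjusted p = 0.053) or 3 (-1.08, adjusted p = 0.11). Tgfb2 was at 3.99 without MEF replicate 1, and Pmepa1 at -2.88 with length-scaled TPM counts.

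Against bulk primary myoblasts, bulk iMPCs had 5 of 9 genes called, when 19.6% of all genes were (10.9% higher, 8.70% lower). The iMPCs were kept in medium with F/R/C, and any difference in medium cannot be told apart here from the cells' origin. Tgfbr1 was higher (1.44 ± 0.24, adjusted p = 3.4e-05), and Pmepa1 (-2.22 ± 0.39, adjusted p = 7.0e-05), Skil (-1.82 ± 0.25, adjusted p = 3.1e-06) and Smad7 (-1.65 ± 0.49, adjusted p = 0.0099) were lower. Pmepa1 had 30.6, 16.9 and 13.2 CPM in iMPCs and 166, 76.6 and 40.5 CPM in myoblasts, so the groups did not overlap, but the myoblasts spread widely. Without myoblast replicate 1 its value was -1.54, with length-scaled TPM counts it was -3.05, and with only these 2 groups in the fit it was not called (-2.26, adjusted p = 0.056). The call of Smad7 was lost without myoblast replicate 3 (-1.35, adjusted p = 0.059) or iMPC replicate 3 (-1.45, adjusted p = 0.056). Tgfb3 (0.84, adjusted p = 0.15) was called without myoblast replicate 1 (1.56, adjusted p = 0.016). Tgfbi was at 827 to 6660 reads per iMPC library and at 2, 31 and 6 reads in the myoblast libraries (8.24 ± 1.23, adjusted p = 7.4e-06; 9.54 without myoblast replicate 2). All 8 fibroblast markers were also called higher in bulk iMPCs than in bulk myoblasts. They summed to 1751, 2908 and 1614 CPM in iMPCs and to 582, 438 and 332 CPM in myoblasts, where Lum had no read, and their part in the results on these cells was not tested.

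**Figure D4:**
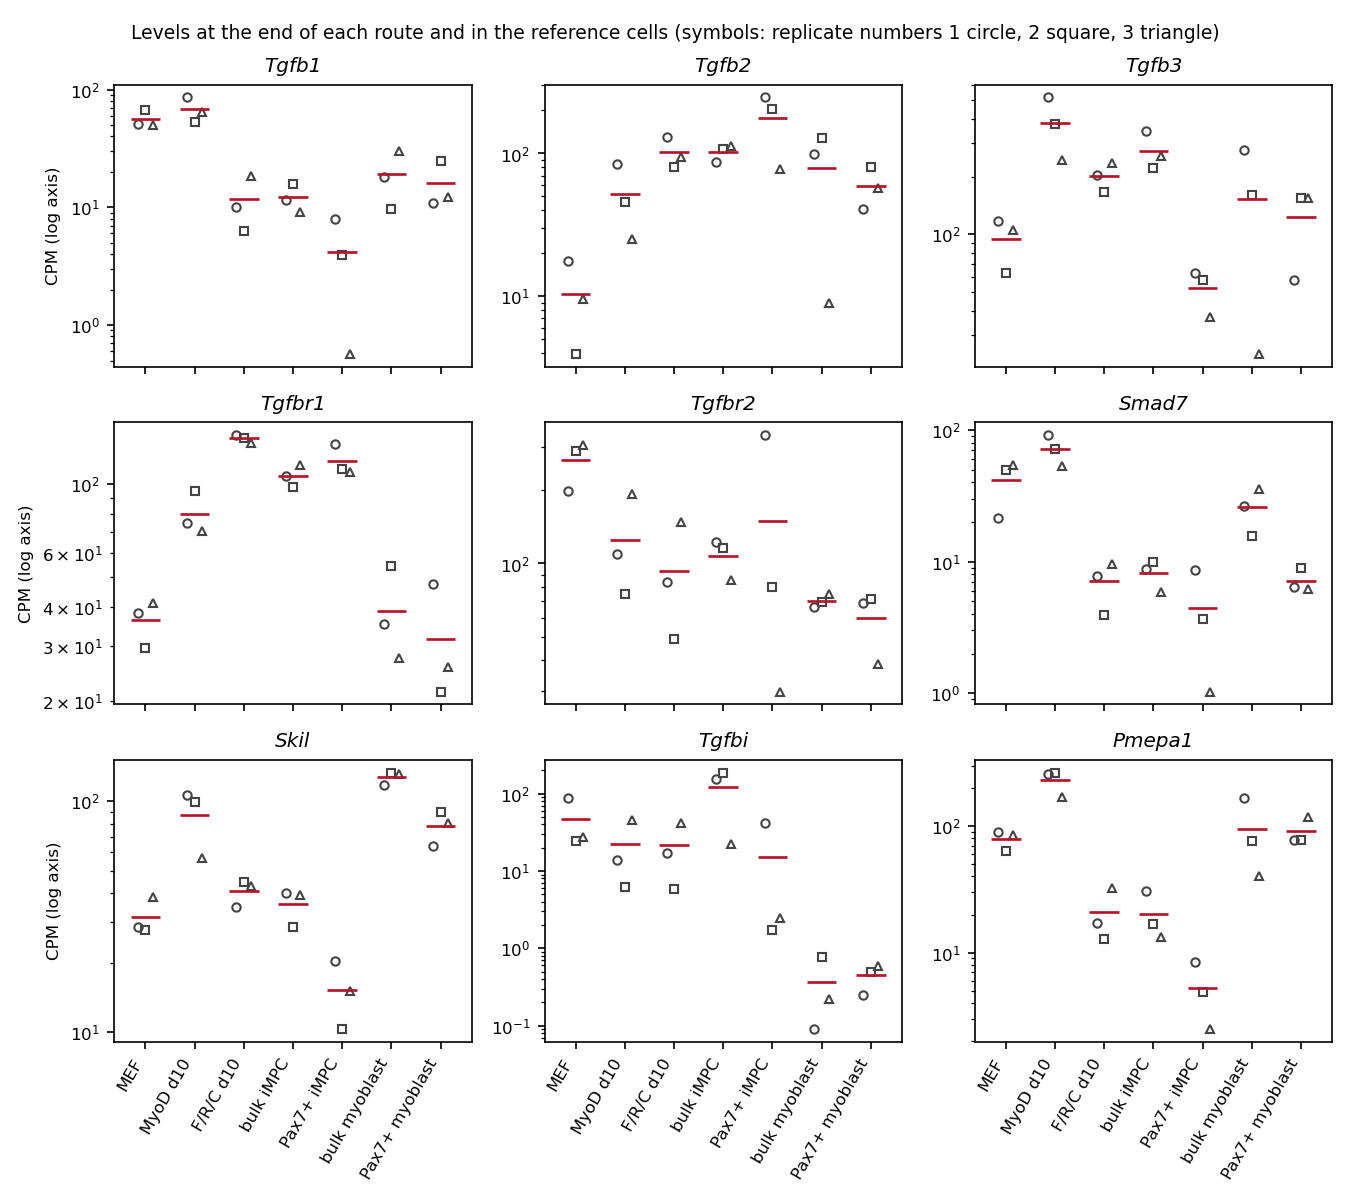
CPM (log axis) of each of the 9 genes in the libraries of MEFs, MyoD day 10, F/R/C day 10, bulk and Pax7-positive iMPCs, and bulk and Pax7-positive myoblasts (points are libraries, red lines group means). Tgfbr1 is higher and Skil and Pmepa1 are lower in both kinds of iMPC than in the matching myoblasts, and Tgfbi is near 0 in myoblasts.

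The sorted cells compare progenitors of both origins, and here too any difference in medium cannot be told apart from origin. Between Pax7-positive iMPCs and Pax7-positive myoblasts 8 of 9 genes were called, 4 higher and 4 lower in iMPCs (30.0% of all genes, 12.4% higher and 17.6% lower). Pmepa1 was 17.3-fold lower in iMPCs (-4.11 ± 0.43, adjusted p = 7.4e-09), with 8.49, 4.89 and 2.48 CPM against 78.0, 78.0 and 119 CPM. Skil was 5.12-fold lower (-2.36 ± 0.26, adjusted p = 1.7e-08), with 20.3, 10.3 and 15 CPM against 63.9, 89.4 and 80.6 CPM. Tgfbr1 was 3.76-fold higher (1.91 ± 0.24, adjusted p = 2.0e-07), with 135, 112 and 109 CPM against 47.7, 21.4 and 25.6 CPM. For these 3 genes no library of one group reached the range of the other, and the calls held without any single library. Smad7 was at -0.67 ± 0.50 and was not called (adjusted p = 0.28). The call of Tgfb1 also held without any single library (adjusted p from 9.5e-05 to 0.019), and those of Tgfb2, Tgfb3, Tgfbr2 and Tgfbi did not. Tgfb1 had only 11 reads in Pax7-positive iMPC replicate 3. Pax7-positive iMPC replicate 1 was the highest of its group for all 9 genes, with the widest gaps for Tgfbr2 (337, 80.1 and 29.8 CPM) and Tgfbi (41.4, 1.70 and 2.48 CPM). Without it, Tgfb1 went from -1.93 to -2.78, Tgfbr2 from 1.32 (adjusted p = 0.025) to -0.11 (adjusted p = 0.86) and Tgfbi from 5.11 (adjusted p = 3.6e-04) to 2.25 (adjusted p = 0.069), and Smad7 was called (-1.58, adjusted p = 0.02). Tgfbr2 was also not called without Pax7-positive myoblast replicate 3 (1.07, adjusted p = 0.12).

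Tgfb2 was higher in the sorted iMPCs (1.57 ± 0.57, adjusted p = 0.023), with 247, 205 and 77.3 CPM against 41.0, 81.0 and 56.9 CPM. This call was lost without Pax7-positive iMPC replicate 1 (1.25, adjusted p = 0.099) or 2 (1.47, adjusted p = 0.055), and without Pax7-positive myoblast replicate 1 (1.36, adjusted p = 0.091) or 3 (1.52, adjusted p = 0.066). Tgfb3 was lower (-1.22 ± 0.45, adjusted p = 0.027), with 63.1, 57.5 and 36.9 CPM against 57.5, 155 and 155 CPM. Its call was lost without Pax7-positive iMPC replicate 2 (-1.25, adjusted p = 0.052) or 3 (-0.98, adjusted p = 0.12), and without Pax7-positive myoblast replicate 2 (-0.97, adjusted p = 0.11) or 3 (-1.02, adjusted p = 0.096). With only these 2 groups in the fit, Tgfb1 (adjusted p = 0.12), Tgfb3 (adjusted p = 0.059) and Tgfbr2 (adjusted p = 0.25) were not called. Differentiated muscle markers summed to 726, 1366 and 848 CPM in the sorted iMPCs and to 4059.9, 5053 and 13977 CPM in the sorted myoblasts, and proliferation markers to 1676, 1658 and 2026 CPM against 843, 687 and 436 CPM. Of the 8 fibroblast markers 3 were called higher in the sorted iMPCs (12.4% of all genes) and 5 were not called, with sums of 1411, 1390.1 and 588 CPM against 621, 606 and 264 CPM. The part of these markers in the results was not tested.

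Across the 15 group means of log2 CPM, Tgfb1, Smad7 and Pmepa1 had like profiles: Pearson's r was 0.95 for Tgfb1 with Smad7, 0.90 for Tgfb1 with Pmepa1 and 0.90 for Smad7 with Pmepa1. Skil and Pmepa1 had r = 0.88, and Tgfb1 and Tgfb2 had r = -0.63. Of 15042 protein-coding genes, the 2 most like Pmepa1 were Spsb1 (0.984) and Rnf185 (0.965), the one most like Smad7 was Snx7 (0.989), and those most like Tgfb1 were F11r (0.989) and Plscr2 (0.986). Skil was closest to Rasgrp3 (0.967) and Ptpn21 (0.950), and Tgfbr1 to Peg10 (0.960) and Ccnk (0.932). Tgfb2 was closest to Heyl (0.916), a Notch target gene, and Zscan21 (0.905). Tgfb3 was closest to Cox19 (0.977) and Twf2 (0.971), Tgfbr2 to Gap43 (0.932) and Laptm4b (0.924), and Tgfbi to Ahrr (0.965) and Tent5a (0.949). These values describe 15 groups that share treatments and are no test.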

How the data were processed

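RNA from 45 libraries was poly-A selected with a stranded kit and read from a single end (100 bases), per the labels' protocols. Per the submitters' processing notes, bcl2fastq 2.19, Trimmomatic 0.36, kallisto 0.44, edgeR 3.28 and the build GRCm38.p6 were used; their settings are not given in the sources used here. Per the file headers, the authors deposited estimated counts for each of 121843 transcripts, which are not normalised and divide a read among the transcripts it fits. Their deposited TPM correct for transcript length and sum to the same total in each library.

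Transcripts were matched to GENCODE M21 (739 did not match, and matched ones held 99.4% to 99.8% of reads), summed per gene and rounded. CPM are counts per 1 M reads after TMM scaling, and TPM means were used only to compare levels between genes. All libraries were fitted in 1 edgeR 4.0.16 quasi-likelihood model (R 4.3.3, filterByExpr, 17325 genes, 30 residual degrees of freedom), with a coefficient per group. The log2 CPM used for correlations were taken with a prior count of 2. Calls needed p under 0.05 after Benjamini-Hochberg adjustment and a log2 difference of 1 or more in size; log2 values were computed from the deposited counts. Each SE is the log2 difference divided by the square root of its F statistic. The fit was tested on simulated data.

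Replicate numbers come from the titles. The deviations of same-numbered libraries from their group means correlated on days 2, 4 and 6 for all 3 numbers (r from 0.223 to 0.375), so numbers appear to pair the routes on these days. On days 8 and 10 numbers 1 and 2 also correlated (r from 0.227 to 0.264), but number 3 did not pass 0.1 (r = 0.079 and 0.062). The main fit did not use this pairing, since the labels do not say what the numbers share. Its p-values are therefore unpaired, and the replicate block is given as an alternative. Alternatives were RLE scaling, no filter, length-scaled TPM, a replicate block, only the groups compared, no minimum fold change, DESeq2 1.42.0 and leaving out each library. Pathway genes named are, per role, up to 3 called genes with the largest difference in the average and on day 2; for each member the 2 genes with the best correlation are named. A further gene that these rules would name is not reported here and is left out of the list's counts. The members and lists were chosen with earlier results of these data known.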

Additional observations from a re-analysis of the deposited data

Results flagged for a closer look

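Some differences between the routes changed sign between days, in that all 3 same-numbered pairs of libraries differed one way on 1 day and the other way on another. For Tgfb2 the log2 difference (F/R/C minus MyoD) was -1.08 on day 2 and 0.78, 0.93, 1.01 and 0.98 on days 4, 6, 8 and 10, so the differences from day 2 were 1.86, 2.01, 2.09 and 2.06. That of day 10 was tested (adjusted p = 0.094, not called; called with the replicate block, adjusted p = 0.023), and those of days 4, 6 and 8 were not tested. For Tgfb3 the difference was 0.70 on day 4 and -0.90 on day 10, which are 1.61 apart and were not tested. For Tgfbr2, 0.07 on day 6 was 0.17 above day 8 (-0.10) and 0.49 above day 10 (-0.42), small beside an SE of 0.48 for each day, and these were not tested. On days 8 and 10 numbers 1 and 2 correlated best with their own number and number 3 did not.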

How the results depend on the processing

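Over 945 values from other settings of the analysis, 916 kept their direction and their side of the threshold, 12 lost and 11 gained a call, and 6 changed sign. The 6 were near 0: with the replicate block Tgfbr2 on day 2 (-0.01) and Tgfbi on day 6 (-0.02), and Tgfbi on day 10 with RLE size factors (0.01), with no filter on low counts (0.04), with length-scaled TPM counts (0.05) and by DESeq2 (0.01). With single libraries left out, 997 of 1080 values kept both, and 33 changed sign. These belonged to Tgfbr2 (F/R/C minus MyoD, -0.06 to 0.23 on day 2, -0.12 to 0.27 on day 4, -0.08 to 0.31 on day 6, -0.29 to 0.20 on day 8, -0.76 to 0.13 on day 10, -0.11 to 0.07 in the average and -0.82 to 0.07 for day 10 minus day 2), Tgfb3 (-0.03 to 0.51 on day 6, -0.41 to 0.04 on day 8, -0.04 to 0.14 in the average) and Tgfbi (-0.16 to 0.63 on day 6, -0.79 to 1.18 on day 10). In bulk iMPCs against F/R/C day 10 they were Tgfb1 (-0.24 to 0.51), Tgfbr2 (-0.10 to 0.64), Smad7 (-0.09 to 0.42) and Pmepa1 (-0.46 to 0.37). The rest were Tgfb2 in bulk iMPCs against bulk myoblasts (-0.16 to 0.96) and Tgfbr2 between the sorted cells (-0.11 to 1.83). For the change from day 2 to day 10, 1 member (Tgfb2) was called with the replicate block (2.23, adjusted p = 0.023), with only the groups compared and by DESeq2, against 0. In bulk iMPCs against F/R/C day 10, 0 members were called with no filter and 0 with only the groups compared, and 0 to 1 with a library left out. Between the sorted cells, 5 were called with only the groups compared and 5 to 7 with a library left out. The cause was not tested. The replicate block also called Tgfb2 on day 10 (1.11, adjusted p = 0.048), Smad7 on F/R/C day 2 against MEFs (-1.24, adjusted p = 0.021) and Tgfbr2 on MyoD day 10 against MEFs (-1.16, adjusted p = 0.047), and changed no other call. In these contrasts with MEFs, same-numbered libraries hardly correlated (r from -0.071 to 0.135), so a pairing by number is not shown there.

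Over all genes, counts of calls moved by over 1.5 times with no minimum fold change (1401, 4023, 4640, 5756 and 7108 on days 2 to 10, 10654 in the average, 6317 and 5899 on day 2 and 5088 and 9216 on day 10 of the MyoD and F/R/C routes against MEFs, 9385, 3549 and 5693 for bulk iMPCs against MEFs, F/R/C day 10 and myoblasts, and 8233 between the sorted cells). They also moved with only the groups compared (1420 on day 2, 2019 for MyoD day 10 against MEFs, 1265 for bulk iMPCs against myoblasts, 3424 between the sorted cells) and with no filter for day 10 minus day 2 (649). Without MyoD day 2 replicate 2 or F/R/C day 2 replicate 3, day 2 had 492 and 423 calls. Day 10 minus day 2 had 300 to 575 calls without any 1 of 6 libraries (MyoD day 2 replicates 2 and 3, F/R/C day 2 replicate 1, MyoD day 10 replicates 1 and 3, F/R/C day 10 replicate 2), and MyoD day 10 against MEFs had 2077 without MyoD day 10 replicate 2. Depth limits mainly Tgfbi, with 2 to 31 reads in the myoblast libraries. Reads were also few in Pax7-positive iMPC replicate 3 for Tgfb1 (11), Smad7 (20) and Pmepa1 (48).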

Other observations

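The estimated makeup of 2 genes by transcript differed between groups. For Pmepa1, the annotated 720-base transcript had a mean share of 57.5% to 66.1% of the gene's TPM in the 10 groups of both routes and of 58.5% in MEFs. In bulk iMPCs its share was 16.2% ± 4.68 (SD, n = 3), and the 4538-base transcript had 83.8% ± 4.68 (SD, n = 3). In bulk myoblasts the share of the 720-base transcript ran from 7.33% to 64.7% between libraries, and in sorted iMPCs it was 68.2% ± 4.48 (SD, n = 3). For Tgfb1, a 700-base transcript had at most 4.41% in the means of both routes, 33.3% ± 5.39 in bulk iMPCs and 37.7% ± 10.4 in sorted iMPCs (SD, n = 3 each), and 31.4% ± 17.7 in sorted myoblasts (SD, n = 3). These shares are the quantifier's estimates for transcripts that overlap, and they were not tested.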
